A study of Mus musculus with 24 samples.

Results

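The genes described here number 39 and cover glucose uptake, glycolysis, lactate handling and the transcriptional response to low oxygen. They were a fixed list matched by gene name, drawn up with earlier results of these data known, and all 39 were found among the 55401 entries of a count table made from mouse embryonic stem cells. Where a name stood in more than 1 row, the row with the most counts was used. By role they are 4 transporters, 18 glycolytic enzymes, 4 regulators of glycolytic flux, 2 subunits of hypoxia-inducible factor (HIF) and 11 hypoxia-response genes. Of the 39, 38 passed the filter on low counts. Hif1a, the gene of the best known oxygen-regulated HIF subunit, was listed at 0 in all 24 libraries, and so was Sox2, which embryonic stem cells use, so nothing is read from that 0.

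The cells were of the CJ9 line of mouse embryonic stem cells. The Setd3 knock-out cells carried a CRISPR-Cas9 disruption of Setd3, which encodes a methyltransferase that modifies a histidine of actin, and were set against wild-type cells. Both genotypes were sampled at days 0, 2, 3 and 4 of a differentiation towards definitive endoderm, with 3 libraries of polyadenylated RNA in each of 8 groups. All cells had been kept with LIF, a cytokine that holds stem cells undifferentiated, on growth-arrested mouse embryonic fibroblasts. They were parted from these feeder cells at the start, spent the first 2 days in serum-free medium and were then replated with Activin A, the ligand used to direct cells to endoderm. The knock-out was 1 line. Nothing in the labels says whether replicates came from separate cultures, so the p-values measure only the spread between these libraries, which may be technical.

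Glycolysis turns glucose into pyruvate, and lactate dehydrogenase turns pyruvate into lactate, which leaves the cell through monocarboxylate transporters. HIF is a dimer of an alpha subunit, which prolyl hydroxylases mark for destruction when oxygen is present, and a stable partner, and it binds DNA at a short core motif to raise genes of glucose uptake, glycolysis, blood vessel growth and collagen hydroxylation. Pluripotent mouse cells are known for high glycolytic activity, and the balance between glycolysis and respiration shifts as they leave that state.

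Levels are given as CPM, which is counts scaled to a common library size. Libraries held 18531390 to 24244958 counts, of which these genes took 1.01 to 1.83%. Setd3 itself averaged 46.3 ± 3.49, 30.9 ± 2.62, 31.6 ± 2.15 and 29.9 ± 1.01 CPM in knock-out cells at days 0, 2, 3 and 4, against 122 ± 4.49, 97.5 ± 0.62, 120.2 ± 4.42 and 124 ± 3.71 CPM in wild-type cells (SD, n = 3 each). Markers of the intended cell type separated the genotypes. A sum over 4 definitive endoderm markers (Sox17, Foxa2, Gata6 and Cxcr4) was 46.6 to 102 CPM in knock-out and 695 to 841 CPM in wild-type libraries at day 4. A sum over 8 stem cell markers, of which Sox2 was listed at 0, was 711 to 755 CPM in knock-out and 200 to 315 CPM in wild-type libraries. Pou5f1 (474 CPM in knock-out and 140 CPM in wild-type cells) and Nanog (249 CPM in knock-out and 111 CPM in wild-type cells) carried that gap. Zfp42 (7.48 and 3.71 CPM) and Esrrb (1.95 and 0.598 CPM) were also higher in knock-out cells. Klf4 (1.11 CPM in knock-out and 3.87 CPM in wild-type cells), Tfcp2l1 (4.35 and 8.38 CPM) and Dppa3 (0.062 and 0.235 CPM) were lower. RNA of fibroblast markers was present at day 0. A sum over 18 fibroblast markers was 3133, 2204 and 1150 CPM in knock-out replicates 1 to 3 and 1213, 2089 and 1778 CPM in the wild-type replicates at day 0. By day 2 it was 121 to 217 CPM in knock-out and 112 to 133 CPM in wild-type libraries. In bulk RNA, fewer cells of a type and less RNA per cell cannot be told apart.

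At day 4, knock-out cells had far less RNA of the glucose transporter Slc2a3, the lactate transporter Slc16a1 and the hypoxia-response genes Vegfa and P4ha1 than wild-type cells. Of the 18 glycolytic enzymes, 3 were called higher and 3 lower in knock-out cells at that day, 33.3% against 54% of all genes tested. Calls below are at an adjusted p under 0.05. They come from the quasi-likelihood test of edgeR, adjusted by the method of Benjamini and Hochberg over all 17144 genes tested, as do all adjusted p-values. After a log2 fold change, ± stands for the size of the change divided by the root of its F statistic. At day 0, 5 of 38 genes were called (4 higher and 1 lower in knock-out cells), which is 13.2% against 21.1% of all genes tested (10.6% higher, 10.5% lower). At day 2, 11 were called (7 higher, 4 lower), 28.9% against 32% (16.2% higher, 15.7% lower). At day 3, 18 were called (8 higher, 10 lower), 47.4% against 41.2% (20.8% higher, 20.5% lower). At day 4, 21 were called (5 higher, 16 lower), 55.3% against 54% (26.3% higher, 27.6% lower). In number, then, these genes were called at a share near that of all genes at days 2, 3 and 4 and below it at day 0, and the 16 that were lower at day 4 are 42.1% of the 38, against 27.6% of all genes called lower. The median log2 fold change of the 38 was 0.04, -0.09, -0.02 and -0.19 at days 0, 2, 3 and 4, against 0.01, -0.01, -0.01 and -0.01 over all genes tested. At day 0 the count turned on 1 library: without knock-out replicate 3, which had the lowest feeder sum of its group, 14 genes were called, 3 higher and 11 lower. At day 2 the count fell to 7 without knock-out replicate 2 or without wild-type replicate 2, and it was 22, with 7 higher and 15 lower, when only the groups compared entered the fit.

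**Figure D1:**
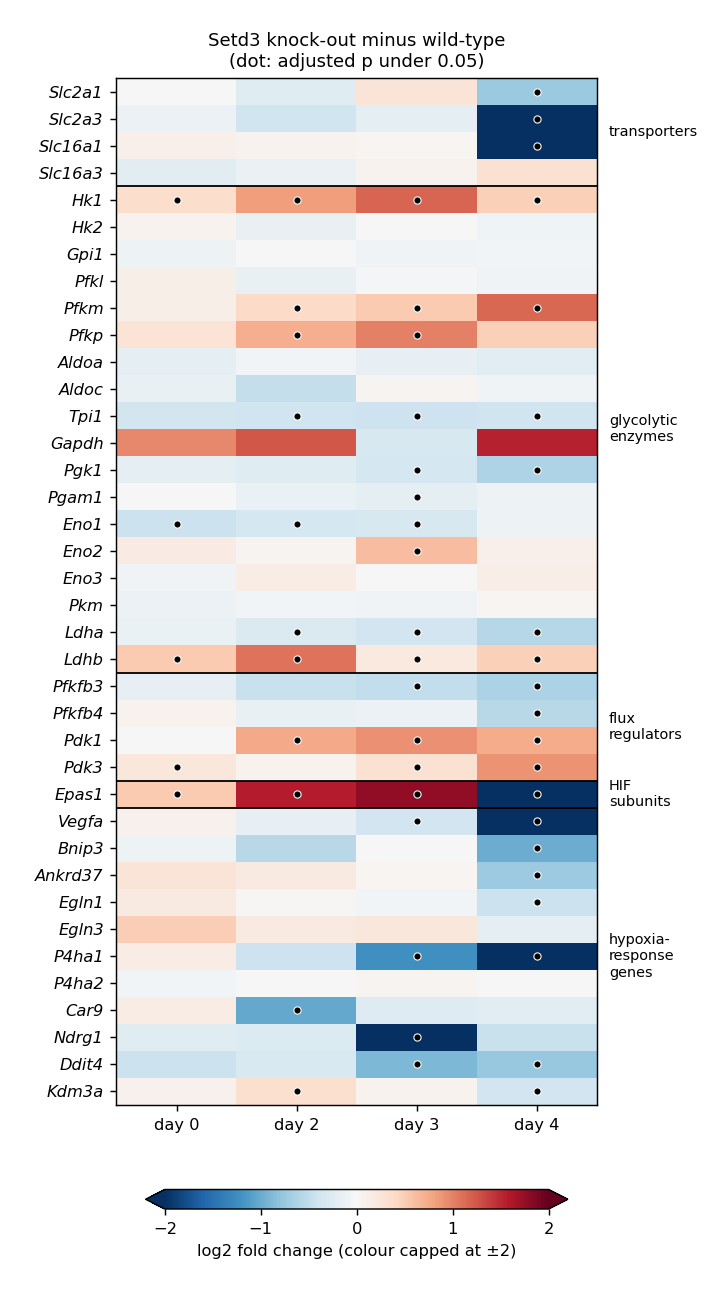
Log2 fold change, knock-out over wild-type, of the 38 tested genes (rows, grouped by role) at days 0, 2, 3 and 4 (columns). Colour is capped at 2 in either direction and a dot marks an adjusted p under 0.05. At day 4, 3 of 4 transporters (75%) and 7 of 11 hypoxia-response genes (63.6%) are called lower in knock-out cells and 0 higher. Of all genes tested, 54% are called on that day, 27.6% lower. Hk1, Pfkm, Ldhb and Pdk1 are called higher in knock-out cells at days 2, 3 and 4, and Hk1 and Ldhb at day 0 too.

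Within each genotype, most hypoxia-response genes were lower at day 2 than at day 0, and over the same step the fibroblast marker sums given above were also lower at day 2. Their part in this step was not tested. From day 0 to day 2, 24 of 38 genes were called in knock-out cells (5 higher, 19 lower at day 2), 63.2% against 60.1% of all genes (29.5% higher, 30.6% lower), and 25 in wild-type cells (6 higher, 19 lower), 65.8% against 63.8% (32% higher, 31.8% lower). From day 2 to day 3, 14 were called in knock-out cells (3 higher, 11 lower), 36.8% against 29.1% (14.7% higher, 14.4% lower), and 18 in wild-type cells (5 higher, 13 lower), 47.4% against 42.4% (21.4% higher, 21.1% lower). Without knock-out day 2 replicate 1, the knock-out count for that step was 9. From day 3 to day 4, 10 were called in knock-out cells (9 higher, 1 lower), 26.3% against 11.6% (5.76% higher, 5.83% lower), and 25 in wild-type cells (21 higher, 4 lower), 65.8% against 45.5% (22.4% higher, 23.1% lower). The 21 genes higher at day 4 in wild-type cells are 55.3% of the 38, against 22.4% of all genes. The knock-out count for that last step fell to 5, 4 and 6 without knock-out day 3 replicate 1, 2 and 3, and to 6 and 4 without knock-out day 4 replicate 2 and 3. With only the groups compared in the fit, it was 23 (20 higher, 3 lower), and the wild-type count was 26 (22 higher, 4 lower). Over all genes that fit called 3698 in knock-out and 6799 in wild-type cells. The DESeq2 Wald test called 15 of these genes (14 higher, 1 lower) in knock-out and 25 (21 higher, 4 lower) in wild-type cells. The median log2 fold change of the 38 over the last step was 0.21 in knock-out and 0.33 in wild-type cells, against 0.00 and -0.01 over all genes.

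Whether a step differed between genotypes was tested in the same fit, as the knock-out step minus the wild-type step. For the step from day 0 to day 2, 4 genes were called (4 higher, 0 lower), 10.5% against 7.34% of all genes (4.27% higher, 3.07% lower). That count was 7 without knock-out day 0 replicate 3 and 2 without wild-type day 2 replicate 1. For the step from day 2 to day 3, 2 genes were called, both lower, 5.26% against 10.9% (6.61% higher, 4.33% lower). With only the groups compared in the fit, 9 were called for that step, 6 higher and 3 lower. For the step from day 3 to day 4, 12 genes were called (4 higher, 8 lower), 31.6% against 23.8% (12.6% higher, 11.2% lower). The genotype comparisons, the steps and their differences share libraries, so they are not independent of each other.

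**Figure D2:**
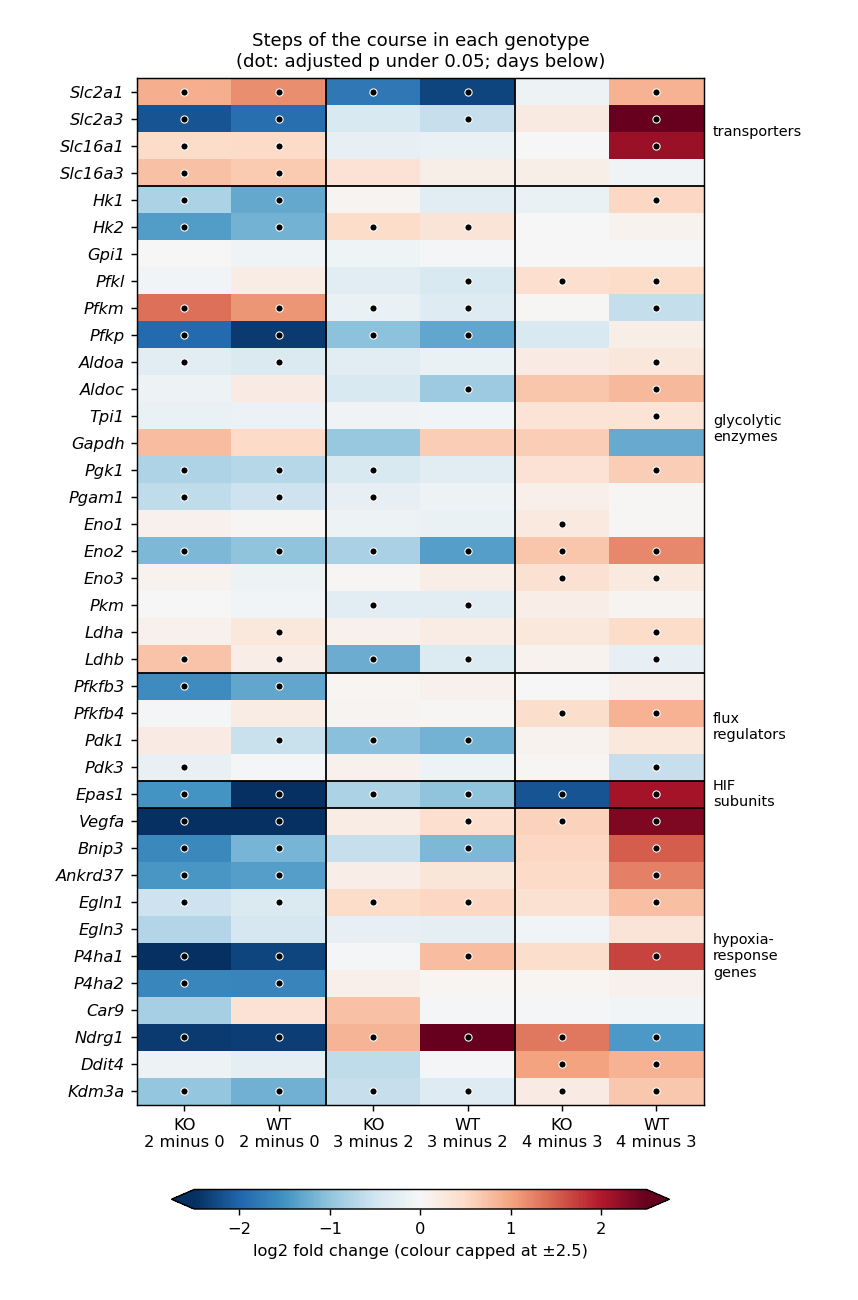
Log2 fold change over each step, later day over earlier day, of the 38 tested genes, with knock-out left of wild-type cells within each step. Colour is capped at 2.5 in either direction and a dot marks an adjusted p under 0.05. By day 2, 8 of 11 hypoxia-response genes are called in each genotype, all lower. That is 72.7%, against 60.1% of all genes called in knock-out and 63.8% in wild-type cells (30.6% and 31.8% lower). Over the last step, 7 of 11 are called higher and 1 lower in wild-type cells, 72.7% against 45.5% of all genes called. In knock-out cells 4 of 11 are called, all higher, 36.4% against 11.6% of all genes.

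Among the transporters, wild-type cells at day 4 stood far above every other group for Slc2a3 and Slc16a1. Slc2a3 encodes GLUT3, a glucose carrier of high affinity (ENSMUSG00000003153, chr6:122727809-122801640, minus strand, GRCm38). On day 4 it had 165, 169 and 187 CPM in the 3 knock-out libraries, against 2490, 2190 and 1776 CPM in the wild-type libraries. The groups did not overlap, and the lowest wild-type library was above the highest knock-out library of any day, which was 1175 CPM at day 0. The difference was -3.63 ± 0.19 on the log2 scale (adjusted p = 3.46e-11). At days 0, 2 and 3 its log2 differences of -0.12, -0.40 and -0.20 were not called, though at days 2 and 3 the libraries of the genotypes did not overlap either.

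Slc2a3 had fallen by day 2 in both genotypes. It had 607, 817 and 1175 CPM in knock-out and 811, 989 and 1018 CPM in wild-type libraries at day 0. At day 2 it had 183, 201 and 198 CPM in knock-out and 269, 263 and 234 CPM in wild-type libraries. The step to day 2 was -2.16 ± 0.17 in knock-out cells (adjusted p = 8.37e-09) and -1.88 ± 0.17 in wild-type cells (adjusted p = 3.65e-08). At day 3 the libraries held 144, 150.5 and 153 CPM in knock-out and 176, 173 and 165 CPM in wild-type cells. All 6 libraries of day 3 lay below every library of day 2. The step to day 4 was 0.22 in knock-out cells (adjusted p = 0.469) and 3.65 ± 0.19 in wild-type cells (adjusted p = 6.81e-11), and the steps differed by -3.43 ± 0.25 (adjusted p = 3.53e-08).

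Slc16a1 encodes MCT1, which carries lactate and pyruvate with protons across the membrane (ENSMUSG00000032902, chr3:104638668-104658462, plus strand). Through day 3 it lay between 202 and 322 CPM in all 18 libraries of both genotypes. On day 4 it had 255, 277 and 262 CPM in knock-out libraries, against 1327, 1222 and 975 CPM in wild-type libraries. Every wild-type library of day 4 was thus more than 3 times the highest library of any other group. The genotype difference at day 4 was -2.15 ± 0.08 (adjusted p = 1e-15), with the step from day 3 at -0.02 in knock-out (adjusted p = 0.935) and 2.17 ± 0.08 in wild-type cells (adjusted p = 3.26e-15). The steps differed by -2.18 ± 0.11 (adjusted p = 2.89e-12).

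Slc2a1, the gene of GLUT1, the widespread basal glucose carrier, took a different course from Slc2a3. Its level was highest at day 2, with 326, 328 and 345 CPM in knock-out and 412, 371 and 393 CPM in wild-type libraries. On day 3 it had 95.0, 99.3 and 93.7 CPM in knock-out and 76.4, 82.8 and 81.7 CPM in wild-type libraries. This drop was -1.80 ± 0.17 in knock-out cells (adjusted p = 3.59e-07) and -2.29 ± 0.17 in wild-type cells (adjusted p = 1.12e-08), and the groups of the 2 days did not overlap in either genotype. At day 4 it had 79.2, 96.2 and 87.8 CPM in knock-out and 132, 168 and 139.7 CPM in wild-type libraries, a difference of -0.74 ± 0.17 (adjusted p = 0.00119). Slc16a3, the gene of the lactate exporter MCT4, was called in no genotype comparison. At day 4 it averaged 282 CPM in knock-out and 228 CPM in wild-type cells. The knock-out libraries (266, 299 and 282 CPM) all lay above the wild-type libraries (185, 264 and 234 CPM), the nearest 2 by little.

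The mix of carriers differed at day 4. Per kilobase of exon, Slc2a3 made up 49.0 ± 2.57% of the summed level of Slc2a1 and Slc2a3 in knock-out cells and 87.5 ± 2.30% in wild-type cells (SD, n = 3). At day 2 its share was 22.0 ± 0.79% in knock-out and 23.96 ± 1.58% in wild-type cells. Slc16a1 made up 53.0 ± 0.45% of Slc16a1 and Slc16a3 at day 4 in knock-out cells and 85.9 ± 3.27% in wild-type cells, with 55.6 ± 1.43% in knock-out and 56.4 ± 2.14% in wild-type cells at day 3. Summed over the 4 transporters, the level at day 4 was 808 ± 39.4 CPM in knock-out and 3701 ± 520 CPM in wild-type cells. At day 3 the sums were 769 ± 15.4 CPM in knock-out and 756 ± 21.8 CPM in wild-type cells. At day 4 the sum over the mesoderm and endothelium markers Kdr, Hand1, Pecam1 and Cdh5 was 0.730 to 1.32 CPM in knock-out libraries (1 of the 4, Hand1, at 0 throughout) and 43.3 to 96.1 CPM in wild-type libraries. Kdr (0.081 CPM in knock-out and 48.0 CPM in wild-type cells) and Hand1 (0 CPM in knock-out and 13.4 CPM in wild-type cells) carried that gap, while the endothelial markers Pecam1 (0.887 CPM in knock-out and 0.923 CPM in wild-type cells) and Cdh5 (0.015 CPM in knock-out and 0.206 CPM in wild-type cells) averaged under 1 CPM in both. The endoderm sums given above were also lower in knock-out cells. The part of these markers in the transporter levels was not tested.

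**Figure D3:**
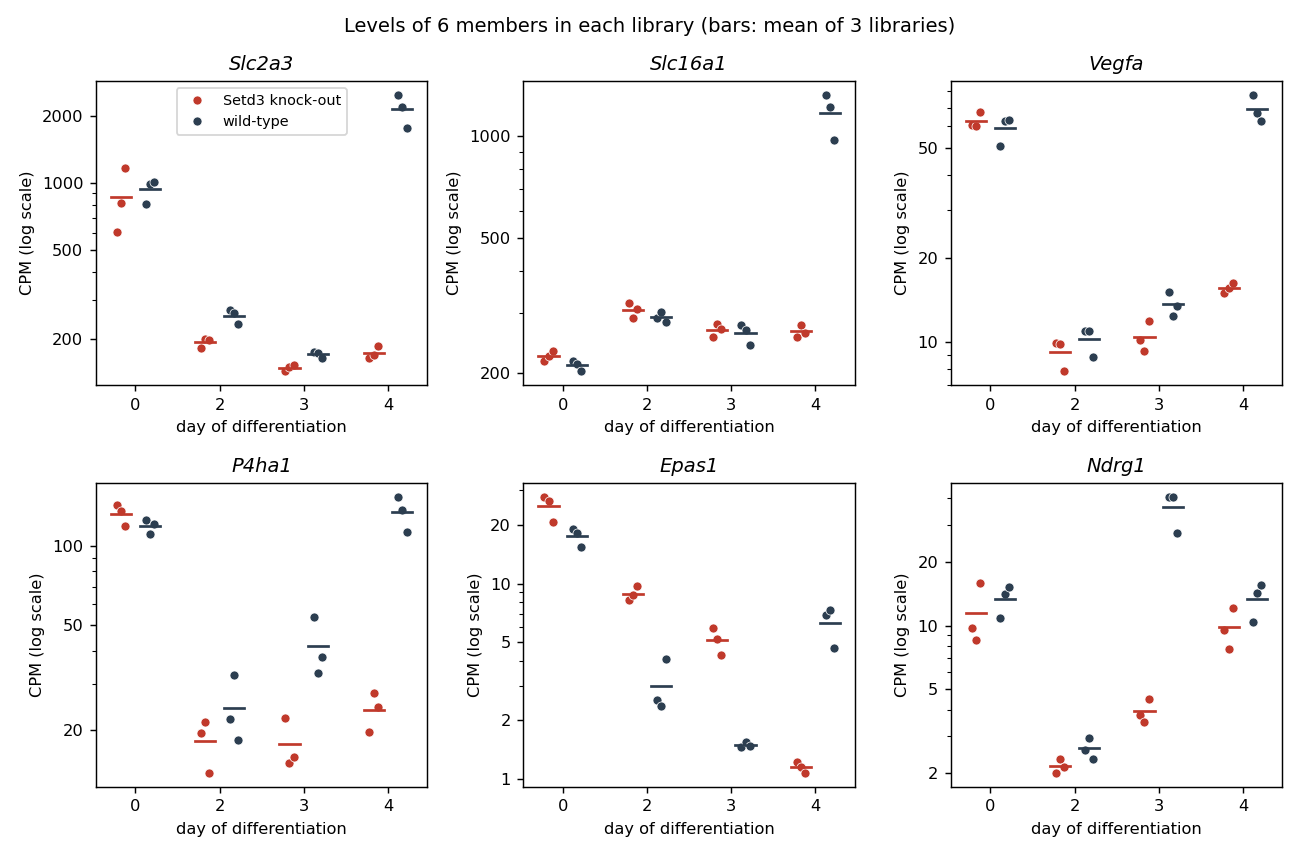
Level in CPM (log axis) of Slc2a3, Slc16a1, Vegfa, P4ha1, Epas1 and Ndrg1 in each library (points) with the group mean (bars), by day, knock-out left of wild-type. For Slc2a3, Slc16a1, Vegfa and P4ha1 the 3 wild-type libraries of day 4 lie above the 3 knock-out libraries of that day. Ndrg1 in wild-type cells peaks at day 3, at 27.3 to 40.7 CPM.

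The glycolytic enzymes were called in both directions. At day 4, 3 of 18 were higher and 3 lower in knock-out cells, 33.3% called against 54% of all genes. The median log2 fold change of the enzymes was -0.06, against -1.45 for the 4 transporters. The summed level of the enzymes at day 4 was 10866 ± 413 CPM in knock-out and 12546 ± 813 CPM in wild-type cells. Hk1, Pfkm, Pfkp and Ldhb, each 1 of several isozymes of its step, were called higher in knock-out cells at days 2 and 3. Eno1, Tpi1, Pgk1, Pgam1 and Ldha were lower in knock-out cells on each day on which they were called between genotypes.

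Hexokinase commits glucose to the cell by phosphorylation, and Hk1 encodes its widespread form. Hk1 had 82.8, 84.1 and 96.3 CPM in knock-out and 59.7, 73.9 and 72.7 CPM in wild-type libraries at day 0, and the groups did not overlap. At day 2 it had 52.0, 53.2 and 46.7 CPM in knock-out and 26.9, 28.5 and 29.5 CPM in wild-type libraries. Its libraries of day 3 had 51.6, 56.5 and 51.6 CPM in knock-out, against 21.8, 23.1 and 26.1 CPM in wild-type libraries. Knock-out libraries were thus the higher ones on each day, with log2 differences of 0.35 ± 0.10 at day 0 (adjusted p = 0.0177), 0.84 ± 0.11 at day 2 (3.97e-06), 1.17 ± 0.11 at day 3 (1.57e-08) and 0.48 ± 0.11 at day 4 (0.000594). The day 0 call was lost without knock-out replicate 3 (0.28, adjusted p = 0.0772) or wild-type replicate 1 (0.24, adjusted p = 0.146). Over the last step Hk1 changed by -0.17 in knock-out cells, which was not called, and rose by 0.52 ± 0.11 in wild-type cells (adjusted p = 0.000531), a difference between steps of -0.69 ± 0.15 (adjusted p = 0.00201). Hk2, the inducible hexokinase, was called in no genotype comparison and made up 79.9 to 92.2% of the hexokinase level per kilobase in the 8 group means. It fell by day 2 in both genotypes, by 1.40 ± 0.09 in knock-out cells (adjusted p = 1.27e-11) and by 1.18 ± 0.09 in wild-type cells (adjusted p = 1.6e-10).

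Phosphofructokinase catalyses the committed step of glycolysis and has liver, muscle and platelet isozymes. The muscle form Pfkm (ENSMUSG00000033065, chr15:98092589-98132451, plus strand) had 116, 112 and 109 CPM in knock-out and 84.7, 85.7 and 88.1 CPM in wild-type libraries at day 2. It had 96.0, 104 and 98.2 CPM in knock-out and 61.7, 69.2 and 76.2 CPM in wild-type libraries at day 3. On day 4 it had 104, 103 and 99.2 CPM in knock-out, against 42.0, 48.5 and 47.2 CPM in wild-type libraries. The libraries of the genotypes did not overlap on these days, and the log2 difference was larger on each later day. The log2 differences were 0.38 ± 0.07 (adjusted p = 7.58e-05), 0.53 ± 0.07 (5.57e-07) and 1.15 ± 0.07 (6.76e-13), and the step to day 4 was 0.04 in knock-out and -0.59 ± 0.07 in wild-type cells, a difference of 0.63 ± 0.09 (adjusted p = 2.01e-05). Of the Pfkm exon sequence, 10.7% overlaps other genes on either strand, and 10.2% overlaps them on its own strand. These genes are Senp1 and Gm26513, and whether counting used strand is not known.

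Pfkp, the platelet form, was highest at day 0. It had 244, 384 and 574 CPM in knock-out and 326, 320.0 and 345 CPM in wild-type libraries at day 0, and 104, 114 and 93.2 CPM in knock-out and 60.3, 56.9 and 70.5 CPM in wild-type libraries at day 2. At day 3 it had 53.5, 53.8 and 45.8 CPM in knock-out and 17.7, 28.1 and 30.5 CPM in wild-type libraries. It fell over the first step by 1.95 ± 0.23 in knock-out cells (adjusted p = 1.33e-06) and by 2.40 ± 0.24 in wild-type cells (1.2e-07), and again by day 3, by 1.02 ± 0.24 in knock-out (0.00346) and by 1.30 ± 0.25 in wild-type cells (0.000477). Its knock-out excess was 0.73 ± 0.24 at day 2 (adjusted p = 0.0259), and 1.01 ± 0.25 at day 3 (adjusted p = 0.00383). The day 2 call was lost without replicate 1 or 2 of either genotype (0.66 to 0.73, adjusted p = 0.0589 to 0.086). The liver form Pfkl was called in no genotype comparison. It had 361, 376 and 387 CPM at day 4 against 291, 272 and 280.4 CPM at day 3 in knock-out cells, a rise of 0.41 ± 0.12 (adjusted p = 0.0324) that was not called without any 1 of these 6 libraries (0.0541 to 0.11). Per kilobase, Pfkm made up 34.1 ± 1.42% of the 3 isozymes in knock-out cells at day 4 and 18.3 ± 0.61% in wild-type cells, while Pfkl made up 62.6 ± 1.27% in knock-out and 78.9 ± 0.42% in wild-type cells.

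Lactate dehydrogenase is built from A and B subunits, the products of Ldha and Ldhb. Ldhb (ENSMUSG00000030246, chr6:142490249-142507957, minus strand) had 218, 250.1 and 289 CPM in knock-out and 169.6, 177 and 178 CPM in wild-type libraries at day 0. At day 2 it had 429, 404 and 416 CPM in knock-out and 181, 208 and 201 CPM in wild-type libraries. On day 3 it had 170.1, 182 and 177 CPM in knock-out and 161, 151 and 152 CPM in wild-type libraries. The day 2 knock-out libraries were thus the highest for Ldhb in the series. The log2 difference was 0.53 ± 0.07 at day 0 (adjusted p = 7.1e-06), 1.08 ± 0.07 at day 2 (3.71e-11), 0.19 ± 0.07 at day 3 (0.0336) and 0.48 ± 0.07 at day 4 (3.73e-06). Without knock-out replicate 2 or 3 or wild-type replicate 2 or 3 of day 3, the day 3 adjusted p was between 0.0709 and 0.126. The first step was 0.72 ± 0.07 in knock-out and 0.17 ± 0.07 in wild-type cells, a difference of 0.55 ± 0.10 (adjusted p = 0.00112). The second was -1.24 ± 0.07 in knock-out and -0.35 ± 0.07 in wild-type cells, a difference of -0.89 ± 0.10 (adjusted p = 1.62e-06).

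Ldha, which favours the making of lactate, moved the other way. It averaged 2493 CPM in knock-out and 3713 CPM in wild-type cells at day 4, a difference of -0.57 ± 0.09 (adjusted p = 9.98e-06), and was also called lower at day 2 (-0.30, adjusted p = 0.0128) and at day 3 (-0.39, adjusted p = 0.00125). The day 2 call was lost without knock-out replicate 2 (adjusted p = 0.0586) or wild-type replicate 2 (adjusted p = 0.0676). Per kilobase, Ldhb made up 31.2 ± 0.30% of the pair at day 2 in knock-out cells and 14.8 ± 0.64% in wild-type cells, with 13.7 ± 0.31% in knock-out and 7.09 ± 0.19% in wild-type cells at day 4. Ldha was the gene with the highest level per kilobase of the 38 at day 4 in both genotypes, at 753 CPM per kilobase in knock-out and 1122 in wild-type cells, followed by Pkm, the pyruvate kinase gene, at 596 in knock-out and 583 in wild-type cells. The transporters Slc2a3 and Slc16a1 lay at 23.9 and 59.8 CPM per kilobase in knock-out cells at day 4, against 297 and 265 in wild-type cells.

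**Figure D4:**
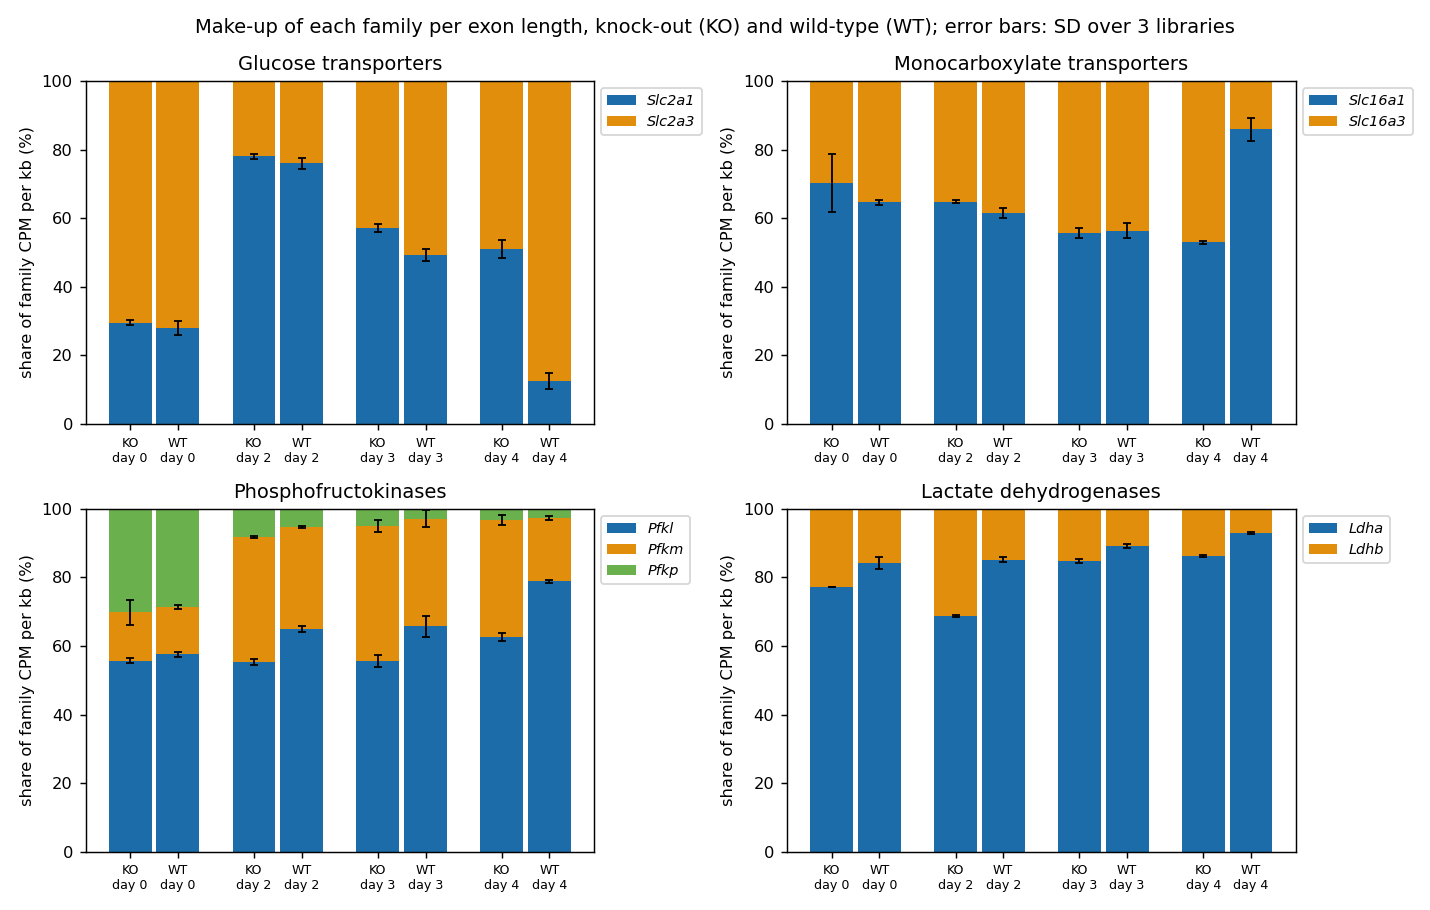
Share of each isozyme in the summed level of its family (percent of CPM per kilobase of exon) by day, knock-out left of wild-type, as stacked bars of group means with error bars of 1 SD over 3 libraries. The Slc2a3 and Slc16a1 shares are larger in wild-type cells at day 4, at 87.5 and 85.9%, and the Pfkm and Ldhb shares are larger in knock-out cells, at 34.1 and 13.7%.

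Enolase makes phosphoenolpyruvate, and its gene Eno1 was called lower in knock-out cells at days 0, 2 and 3 and not at day 4. Eno1 had 1351, 1490 and 1751 CPM in knock-out and 2186, 2053 and 1918 CPM in wild-type libraries at day 0, with no overlap. The log2 difference was -0.42 ± 0.07 at day 0 (adjusted p = 8.46e-05), -0.34 ± 0.07 at day 2 (0.000465) and -0.32 ± 0.07 at day 3 (0.000623). At day 4 it was -0.10 (adjusted p = 0.208), with 1739, 1843 and 1778 CPM in knock-out and 1832, 2028 and 1901 CPM in wild-type libraries. Without knock-out replicate 3, the day 0 library with the lowest feeder sum of its group, the day 0 difference was -0.53 (adjusted p = 7.19e-07). Eno3, the muscle enolase, had 25.4, 26.5 and 25.4 CPM at day 4 against 19.5, 18.9 and 20.9 CPM at day 3 in knock-out cells, a rise of 0.38 ± 0.08 (adjusted p = 0.00365). Triose phosphate isomerase (Tpi1) and phosphoglycerate kinase (Pgk1) were called lower in knock-out cells at day 4, with differences of -0.41 (adjusted p = 0.014) and -0.61 ± 0.13 (0.000623). The Tpi1 call was lost without knock-out replicate 1 (-0.35, adjusted p = 0.0636) or wild-type replicate 2 (-0.34, adjusted p = 0.0639). Of the earlier calls, Tpi1 was not called at day 2 without any 1 of the 6 libraries (0.0554 to 0.0908) or at day 3 without knock-out replicate 1 or 2 or wild-type replicate 1 (0.0546 to 0.0799), nor Pgk1 at day 3 without any 1 of 5 of its 6 libraries, wild-type replicate 3 being the other (0.0625 to 0.166). The mutase gene Pgam1 was called lower in knock-out cells at day 3 (-0.20, adjusted p = 0.00697), and the neuronal enolase gene Eno2 higher (0.61, adjusted p = 0.0207), a call lost without wild-type replicate 1 or 2 or knock-out replicate 1 or 3 of that day (0.0523 to 0.144). Aldoa, Aldoc and Pkm, for the aldolases A and C and pyruvate kinase, were called in no genotype comparison. Gpi1, the glucose phosphate isomerase gene, was called in none of the 13 comparisons. Gapdh spread from 35.4 to 236 CPM within and between groups and was called nowhere. Mouse Gapdh and several other glycolytic genes have near-identical processed copies, and how reads that map to several places were counted is not known, so their levels are uncertain.

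The flux regulators split by function at day 4. The kinases Pdk1 and Pdk3, which switch off pyruvate dehydrogenase and so hold pyruvate back from mitochondria, were higher in knock-out cells, while Pfkfb3 and Pfkfb4, which set the level of the phosphofructokinase activator fructose 2,6-bisphosphate, were lower. Pdk3 had 48.0, 53.0 and 49.6 CPM in knock-out and 26.1, 29.4 and 25.1 CPM in wild-type libraries at day 4, with no overlap and a difference of 0.90 ± 0.06 (adjusted p = 2.43e-11). At day 0 it had 51.4, 51.5 and 54.1 CPM in knock-out and 44.4, 44.0 and 45.7 CPM in wild-type libraries, a difference of 0.23 ± 0.06 (adjusted p = 0.00969) that was not called when only the groups compared entered the fit (adjusted p = 0.0792). Its last step was 0.03 in knock-out and -0.57 ± 0.06 in wild-type cells, a difference of 0.60 ± 0.09 (adjusted p = 2.26e-05).

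Pdk1 had 299, 308 and 285 CPM in knock-out and 152, 176 and 198 CPM in wild-type libraries at day 2, and 139, 158 and 137 CPM in knock-out and 65.8, 81.2 and 84.0 CPM in wild-type libraries at day 3. The knock-out libraries were above all wild-type libraries on both days. The differences were 0.76 ± 0.14 (adjusted p = 0.000289) and 0.91 ± 0.14 (3.41e-05), followed by 0.74 ± 0.14 at day 4 (0.000152). At day 0 the groups overlapped, with 214, 254 and 307 CPM in knock-out and 259, 263 and 248 CPM in wild-type libraries. The first step differed between genotypes by 0.75 ± 0.19 (adjusted p = 0.0208), a call lost without knock-out day 0 replicate 1 (0.63, adjusted p = 0.0546) or wild-type day 2 replicate 1 (0.66, adjusted p = 0.0661). Pfkfb3 and Pfkfb4 differed at day 4 by -0.63 ± 0.19 (adjusted p = 0.00722) and -0.56 ± 0.14 (0.00112). The Pfkfb3 call was lost without wild-type replicate 2 (-0.47, adjusted p = 0.0536).

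Epas1 encodes HIF-2 alpha, the oxygen-regulated subunit best known from endothelium and from control of erythropoietin (ENSMUSG00000024140, chr17:86753700-86833410, plus strand). It was the one gene of the 38 called in all 4 genotype comparisons that changed direction between them, higher in knock-out cells at days 0, 2 and 3 and lower at day 4. It had 27.9, 26.6 and 20.6 CPM in knock-out and 19.02, 18.1 and 15.4 CPM in wild-type libraries at day 0. At day 2 it had 8.19, 8.77 and 9.68 CPM in knock-out and 2.54, 2.37 and 4.09 CPM in wild-type libraries. Its libraries of day 3 had 5.88, 5.20 and 4.30 CPM in knock-out and 1.46, 1.54 and 1.47 CPM in wild-type libraries. The order was the other way round at day 4, with 1.23, 1.14 and 1.07 CPM in knock-out and 6.88, 7.31 and 4.69 CPM in wild-type libraries. The groups did not overlap on any day.

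The log2 differences of Epas1 were 0.52 ± 0.16 at day 0 (adjusted p = 0.0195), 1.56 ± 0.19 at day 2 (1.03e-06), 1.78 ± 0.21 at day 3 (4.2e-07) and -2.45 ± 0.22 at day 4 (1.34e-09). The day 0 call was lost without knock-out replicate 1 (adjusted p = 0.0743), knock-out replicate 2 (0.074) or wild-type replicate 3 (0.0908). Over the last step Epas1 fell by 2.15 ± 0.22 in knock-out cells (adjusted p = 7.47e-07) and rose by 2.07 ± 0.21 in wild-type cells (2.21e-08), a difference between the steps of -4.23 ± 0.31 (adjusted p = 7.17e-10). Over the first step it changed by -1.50 ± 0.16 in knock-out and -2.54 ± 0.18 in wild-type cells, a difference of 1.05 ± 0.25 (adjusted p = 0.00981). Endothelium is a known site of Epas1 expression. Of the markers given above, Pecam1 and Cdh5 averaged under 1 CPM in both genotypes at day 4, and Kdr and Hand1 were lower in knock-out cells. The part of these markers in the Epas1 level was not tested.

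Most of the 11 hypoxia-response genes fell by day 2 in both genotypes, and 7 were lower in knock-out cells at day 4. Their summed level was 703 ± 96.7 CPM in knock-out and 684 ± 23.1 CPM in wild-type cells at day 0, and 359 ± 32.1 CPM in knock-out and 662 ± 33.3 CPM in wild-type cells at day 4. None of the 11 was called at day 0 by edgeR or by the DESeq2 Wald test, and 0 had an unadjusted edgeR p under 0.05. Without knock-out replicate 3, 1 of them, Ddit4, was called lower (-1.03, adjusted p = 7.03e-05). Some were widely spread between the knock-out libraries of day 0. Egln3 averaged 33.89 ± 26.18 CPM in knock-out and 24.19 ± 2.502 CPM in wild-type cells (SD, n = 3). Bnip3 averaged 33.63 ± 19.61 CPM in knock-out and 36.09 ± 1.813 CPM in wild-type cells. Ddit4 averaged 78.5 ± 47.03 CPM in knock-out and 105.1 ± 11.84 CPM in wild-type cells. For Vegfa and P4ha2 the SD was larger in wild-type cells. The lack of calls at day 0 thus does not show equal levels. At day 4, with 7 lower and 0 higher, the median was -0.45, and the share called was 63.6% against 54% of all genes. In the first step, 8 of 11 fell and 0 rose in each genotype, with a median of -1.45 in knock-out and -1.20 in wild-type cells. The share called was 72.7%, against 60.1% of all genes in knock-out and 63.8% in wild-type cells (30.6% and 31.8% lower). Over that step the fibroblast marker sum was 121 to 217 CPM at day 2, against 1150 to 3133 CPM at day 0, in knock-out libraries, and 112 to 133 CPM at day 2, against 1213 to 2089 CPM at day 0, in wild-type libraries, and its part in these falls was not tested. The wild-type fall of Egln1 was not called without day 0 replicate 2 or 3 or day 2 replicate 1 or 2 (adjusted p = 0.0876 to 0.105). Over the last step 4 rose in knock-out cells (median 0.43), 36.4% called against 11.6% of all genes. Of these, Kdm3a was not called without any 1 of the day 3 libraries or day 4 replicate 2 or 3 (adjusted p = 0.0649 to 0.181). In wild-type cells 7 rose and 1 fell over that step (median 0.75), 72.7% called against 45.5% of all genes. The day 4 marker sums of endoderm and of mesoderm and endothelium given above were also lower in knock-out cells, and their part in these levels was not tested.

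Vegfa, the main growth factor for blood vessels, had the lowest adjusted p of the 11 at day 4 (ENSMUSG00000023951, chr17:46016993-46032369, minus strand). It had 60.6, 59.8 and 67.2 CPM in knock-out and 50.8, 62.7 and 63.1 CPM in wild-type libraries at day 0, and 9.94, 9.84 and 7.83 CPM in knock-out and 10.99, 10.96 and 8.81 CPM in wild-type libraries at day 2. At day 3 it had 10.2, 9.29 and 11.9 CPM in knock-out and 15.2, 12.4 and 13.4 CPM in wild-type libraries. Its libraries of day 4 had 15.1, 15.6 and 16.3 CPM in knock-out, against 77.8, 66.8 and 62.6 CPM in wild-type libraries. Wild-type libraries of day 4 thus lay near or above those of day 0, and knock-out libraries lay far below theirs. The day 4 difference was -2.14 ± 0.11 (adjusted p = 1.41e-13). The day 3 difference of -0.39 ± 0.12 (adjusted p = 0.012) was lost without knock-out replicate 2 (-0.32, adjusted p = 0.0702) or wild-type replicate 1 (-0.31, adjusted p = 0.0807). The last step was a rise in both, of 0.58 ± 0.12 in knock-out cells (adjusted p = 0.00208) and 2.33 ± 0.11 in wild-type cells (1.69e-13), and the rises differed by -1.75 ± 0.16 (adjusted p = 3.79e-08).

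P4ha1, a catalytic subunit of the prolyl hydroxylase that matures collagen (ENSMUSG00000019916, chr10:59323296-59373304, plus strand), had 143, 135 and 119 CPM in knock-out and 126, 111 and 121 CPM in wild-type libraries at day 0. At day 2 it had 19.4, 21.5 and 13.7 CPM in knock-out and 22.1, 32.3 and 18.3 CPM in wild-type libraries. These overlapped on both days. On day 3 it had 22.2, 15 and 15.8 CPM in knock-out and 53.7, 32.9 and 37.9 CPM in wild-type libraries, and at day 4 it had 19.6, 27.6 and 24.5 CPM in knock-out and 154, 137 and 113 CPM in wild-type libraries. The genotypes did not overlap from day 3 on, with differences of -1.23 ± 0.23 at day 3 (adjusted p = 0.000335) and -2.49 ± 0.23 at day 4 (3.99e-08). The last step was 0.43 in knock-out cells (adjusted p = 0.27) and 1.70 ± 0.21 in wild-type cells (4.47e-06), a difference of -1.26 ± 0.32 (adjusted p = 0.00726). P4ha2, its sister gene, was called in no genotype comparison.

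Ndrg1, a stress-induced gene named for its downregulation by Myc, differed at day 3 (ENSMUSG00000005125, chr15:66929318-66969640, minus strand). It had 9.77, 8.57 and 15.9 CPM in knock-out and 10.9, 14.0 and 15.3 CPM in wild-type libraries at day 0, and 2.01, 2.34 and 2.15 CPM in knock-out and 2.59, 2.95 and 2.33 CPM in wild-type libraries at day 2. Its libraries of day 3 had 3.77, 3.497 and 4.52 CPM in knock-out and 40.7, 40.7 and 27.3 CPM in wild-type libraries. At day 4 it had 9.57, 7.71 and 12.1 CPM in knock-out and 10.4, 14.3 and 15.5 CPM in wild-type libraries, which overlapped. The wild-type peak was thus seen on 1 day and had no counterpart in knock-out cells through day 4, the last day sampled. Knock-out levels were still rising then, and later days were not sampled. The day 3 difference was -3.20 ± 0.23 (adjusted p = 3.61e-10). The step into day 3 was 0.86 in knock-out (adjusted p = 0.0237, but 0.0634 to 0.0929 without day 2 replicate 1 or 3 or day 3 replicate 3, and 0.0759 without the filter on low counts) and 3.78 ± 0.24 in wild-type cells (5.87e-11), a difference of -2.93 ± 0.38 (adjusted p = 1.84e-05). The step out of it was a rise of 1.32 ± 0.23 in knock-out (0.000715) and a change of -1.43 ± 0.20 in wild-type cells (5.16e-06), a difference of 2.75 ± 0.31 (1.17e-06). The primitive streak markers T, Eomes, Mixl1 and Mesp1 were summed too. At day 3 their sum was 34.4 to 42.0 CPM in knock-out and 669 to 1109 CPM in wild-type libraries. It did not peak on that day alone, with 114 to 210 CPM in knock-out and 602 to 709 CPM in wild-type libraries at day 4. The part of this sum in the Ndrg1 peak was not tested.

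Other hypoxia-response genes gave smaller differences. Kdm3a, a histone demethylase, was higher in knock-out cells at day 2 (0.32, adjusted p = 0.000849) and lower at day 4 (-0.38 ± 0.07, adjusted p = 2.98e-05), and its last step differed between genotypes by -0.46 ± 0.10 (adjusted p = 0.00089). Ddit4, an inhibitor of mTOR signalling, was lower at day 3 (-0.90, adjusted p = 0.0135) and day 4 (-0.75, adjusted p = 0.0224). It had 86.1, 84.4 and 108 CPM at day 4 against 46.5, 41.9 and 49.6 CPM at day 3 in knock-out cells, and 129, 163 and 176 CPM at day 4 against 99.8, 84.3 and 72.9 CPM at day 3 in wild-type cells. It thus rose over the last step in both genotypes, by 1.01 ± 0.27 in knock-out (adjusted p = 0.0219) and 0.86 ± 0.26 in wild-type cells (0.0123). The knock-out rise was not called without any 1 of the day 3 libraries or day 4 replicate 3 (0.0503 to 0.0966), nor the wild-type rise without day 3 replicate 3 (0.0573). Its day 3 call was lost without knock-out replicate 2 (adjusted p = 0.0506) or wild-type replicate 1 (0.0635), and its day 4 call without knock-out replicate 1 or 2 or wild-type replicate 2 or 3 (0.0566 to 0.0779).

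Bnip3, which drives the removal of mitochondria, was lower in knock-out cells at day 4 (-0.997 ± 0.314, adjusted p = 0.012), as were Ankrd37 (-0.72 ± 0.21, adjusted p = 0.00579) and the oxygen sensor Egln1, a HIF prolyl hydroxylase (-0.43 ± 0.14, adjusted p = 0.0124). Without knock-out replicate 1 the adjusted p was 0.0629 for Bnip3 and 0.0616 for Egln1, and without wild-type replicate 2 it was 0.0779 for Bnip3 and 0.058 for Egln1. Exons of Ankrd37 overlap other genes over 26.4% of their length and those of Bnip3 over 22.3%. Egln3, another HIF prolyl hydroxylase gene, was called in no comparison, and Car9, a carbonic anhydrase gene, was called once, at day 2 (-1.03, adjusted p = 0.0467), a call that ended without any 1 of 5 libraries or without the filter on low counts.

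Since HIF binds a short core motif, promoter windows were searched for it, and 5 are shown: those of Slc16a1 and P4ha1, which had large differences at day 4, of Bnip3 and Ldha, which held the most matches among those shown, and of Gpi1, which was called in no comparison and held none. Each is the 250 bases before the annotated start, from RefSeq on GRCm38.p6, written 5′ to 3′ on the strand of the gene. Capitals mark the HIF core, which is ACGTG in its usual form and GCGTG in its other form, on the strand shown. On the opposite strand the usual form reads CACGT in the lines given and the other form reads CACGC there. The palindrome CACGTG holds the core on both strands and was counted on each.
Slc16a1: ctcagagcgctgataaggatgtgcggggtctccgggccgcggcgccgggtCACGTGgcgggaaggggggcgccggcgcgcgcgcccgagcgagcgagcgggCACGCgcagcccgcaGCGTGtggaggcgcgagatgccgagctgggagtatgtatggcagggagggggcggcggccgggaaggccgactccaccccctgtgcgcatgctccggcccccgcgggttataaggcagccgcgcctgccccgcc
P4ha1: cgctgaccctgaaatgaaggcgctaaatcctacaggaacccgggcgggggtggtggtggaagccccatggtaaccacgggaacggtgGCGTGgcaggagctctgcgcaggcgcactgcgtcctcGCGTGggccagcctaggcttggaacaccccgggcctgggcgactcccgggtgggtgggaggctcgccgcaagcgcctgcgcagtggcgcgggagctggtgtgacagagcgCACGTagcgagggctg
Bnip3: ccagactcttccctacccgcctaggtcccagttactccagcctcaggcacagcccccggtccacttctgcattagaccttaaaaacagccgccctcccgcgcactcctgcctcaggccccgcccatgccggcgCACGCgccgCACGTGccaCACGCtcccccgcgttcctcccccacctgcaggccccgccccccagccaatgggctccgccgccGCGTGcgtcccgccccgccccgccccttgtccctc
Ldha: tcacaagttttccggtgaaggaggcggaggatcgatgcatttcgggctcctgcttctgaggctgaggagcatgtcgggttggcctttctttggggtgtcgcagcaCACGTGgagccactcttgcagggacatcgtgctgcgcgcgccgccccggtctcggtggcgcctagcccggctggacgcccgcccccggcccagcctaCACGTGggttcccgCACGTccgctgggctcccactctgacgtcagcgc
Gpi1: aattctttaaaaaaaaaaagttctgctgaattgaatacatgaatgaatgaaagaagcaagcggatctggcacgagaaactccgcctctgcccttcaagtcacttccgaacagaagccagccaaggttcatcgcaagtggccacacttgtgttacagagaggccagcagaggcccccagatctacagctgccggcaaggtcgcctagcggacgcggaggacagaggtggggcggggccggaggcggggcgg
The windows lie at chr3:104638414-104638663 (plus strand) for Slc16a1, chr10:59323046-59323295 (plus) for P4ha1, chr7:138909507-138909756 (minus) for Bnip3, chr7:46845554-46845803 (plus) for Ldha and chr7:34230337-34230586 (minus) for Gpi1. Matches numbered 4 for Slc16a1, 3 for P4ha1, 5 for Bnip3, 5 for Ldha and 0 for Gpi1. Of the 39 genes, 36 had a window, and 33 of these 36 held the core at least once. No window was at hand for Slc2a3, Epas1 and Ndrg1. Counted over windows, since a gene can have several, 41 of 52 windows held the core (78.8%), against 8036 of 15267 windows of all genes tested (52.6%) and 12679 of 32851 windows in all (38.6%). For the genes called lower in knock-out cells at day 4 it was 15 of 19 windows (78.9%), a share close to that of all 52. The core is 5 bases long and frequent in windows rich in G and C, so a match is a description of the sequence and not a binding site.

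Genes of the same pathways beyond the 39 were read from lists. Of 28 further genes of glycolysis and pyruvate use, 5 were higher and 2 lower in knock-out cells at day 0, 7 and 5 at day 2, 4 and 8 at day 3, and 6 and 10 at day 4. These are 25, 42.9, 42.9 and 57.1% called, against 21.1, 32, 41.2 and 54% of all genes. At day 4 Dlat, a gene of the pyruvate dehydrogenase complex, averaged 124 CPM in knock-out and 103 CPM in wild-type cells (log2 difference 0.27 ± 0.04, adjusted p = 9.5e-06), and the mutase gene Pgam2 averaged 1.53 CPM in knock-out and 6.09 CPM in wild-type cells (-1.99 ± 0.22, adjusted p = 3.15e-08). Of 15 further carriers of monocarboxylates and sugars, 2 were higher and 4 lower at day 4, 40% called against 54% of all genes. These included Bsg, basigin, the chaperone that brings MCT1 and MCT4 to the membrane, with 294 CPM in knock-out and 477 CPM in wild-type cells (-0.70 ± 0.06, adjusted p = 1.36e-10), and Slc16a13, with 25.5 CPM in knock-out and 71.2 CPM in wild-type cells (-1.48 ± 0.08, adjusted p = 2.35e-13). Of 8 genes of the pentose phosphate pathway, 1 was higher and 3 lower at day 4 (50% called against 54% of all genes), with Prps1 higher (102 CPM in knock-out and 46.8 CPM in wild-type cells, 1.12 ± 0.09, adjusted p = 9.38e-10).

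Of 14 genes of the HIF machinery, 6 were higher and 2 lower in knock-out cells at day 4, 57.1% called against 54% of all genes. Arnt, the stable partner of the HIF alpha subunits, was higher at every day, by 0.42, 0.61, 0.55 and 0.48 on the log2 scale, with 125 CPM in knock-out and 89.4 CPM in wild-type cells at day 4 (adjusted p = 2.23e-07). Hif1an, which encodes an asparaginyl hydroxylase that curbs HIF, was higher at day 4 (0.37 ± 0.05, adjusted p = 2.13e-07), and Cited2, whose product competes with HIF for its coactivators, was lower (17.03 CPM in knock-out and 73.4 CPM in wild-type cells, -2.11 ± 0.17, adjusted p = 1.92e-09). Of 40 further genes listed as hypoxia targets, 2 were higher and 2 lower at day 0, 9 and 8 at day 2, 14 and 8 at day 3, and 10 and 16 at day 4, which are 10, 42.5, 55 and 65% called against 21.1, 32, 41.2 and 54% of all genes. Their medians between genotypes were 0.02, 0.09, 0.07 and -0.07 over these days, nearer 0 at day 4 than the -0.45 of the 11 hypoxia-response genes. Among them at day 4, Gys1, the glycogen synthase gene, was lower (25.9 CPM in knock-out and 48.1 CPM in wild-type cells, -0.89 ± 0.09, adjusted p = 9.29e-09) and Bhlhe40, a transcriptional repressor, higher (35.1 CPM in knock-out and 8.92 CPM in wild-type cells, 1.97 ± 0.18, adjusted p = 1.59e-08). Over the first step, 25 of the 40 fell and 5 rose in knock-out cells and 25 fell and 9 rose in wild-type cells (75% called against 60.1% of all genes in knock-out, 85% against 63.8% in wild-type cells). Over the last step, 6 rose and 4 fell in knock-out cells and 17 rose and 6 fell in wild-type cells (25% against 11.6% in knock-out, 57.5% against 45.5% in wild-type cells).

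Of 13 genes known to act upstream of glycolysis, 5 were higher and 1 lower in knock-out cells at day 4, 46.2% called against 54% of all genes. Mycn, a Myc family factor, had 157 CPM in knock-out and 68.0 CPM in wild-type cells at day 4 (1.21 ± 0.07, adjusted p = 1.65e-12) and 199 CPM in knock-out and 87.5 CPM in wild-type cells at day 3 (1.18 ± 0.07, adjusted p = 6.09e-12). Lin28b, an RNA-binding protein gene, was higher at day 4 (205 CPM in knock-out and 118 CPM in wild-type cells, 0.79 ± 0.06, adjusted p = 3.04e-11), and the kinase gene Akt1 was lower (61.2 CPM in knock-out and 102 CPM in wild-type cells, -0.74 ± 0.13, adjusted p = 4.21e-05).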

How the data were processed

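RNA-seq counts of 24 libraries were used, 3 in each of 8 groups of genotype and day. Reads were trimmed with Trimmomatic and aligned with HISAT2 to GRCm38.p6, per the submitters' processing notes. Neither these notes nor the labels name versions, a counting tool, an annotation, the strand setting or the treatment of multi-mapping reads. The deposited table holds whole-number counts per gene for 55401 entries, with 1 column per library and no normalization by the authors. From these counts, edgeR 4.0.16 in R 4.3.3 (limma 3.58.1) removed low genes with filterByExpr, which left 17144, scaled by TMM and fitted 1 quasi-likelihood model with robust dispersions over all groups. All 13 contrasts were adjusted by Benjamini-Hochberg over the genes tested, at a threshold of 0.05. CPM used TMM-scaled library sizes. Exon lengths and overlaps came from GENCODE M21, which held 55141 of the IDs. At 18531390 to 24244958 counts per library, counting error is small beside the spread between libraries for all but the lowest genes.

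The genes and the lists were chosen with earlier results of these data known. Genes given per library are, for each genotype comparison, the called ones with the 4 lowest adjusted p, and for each step the called ones with the 4 largest changes among those reaching 10 CPM in a group; the other named genes serve roles in the text. The further pathway lists give examples of lowest adjusted p. Alternatives were DESeq2 1.42.0 size factors, the DESeq2 Wald test, no filter on low counts, a fit of only the groups compared, a replicate block, and leaving out each library. No 2 libraries of a group agreed within sampling noise, with a chi-square per degree of freedom of at least 3.2. The fit was tested on simulated data before use.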

Additional observations from a re-analysis of the deposited data

Results flagged for a closer look

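In 18 tests the change over a step differed between the genotypes, and each value below is the knock-out step minus the wild-type step on the log2 scale. For day 2 minus day 0 these were Hk1 (0.49), Ldhb (0.55), Pdk1 (0.75) and Epas1 (1.05). For day 3 minus day 2 they were Ldhb (-0.89) and Ndrg1 (-2.93). For day 4 minus day 3 the steps of Slc2a1 (-1), Slc2a3 (-3.43), Slc16a1 (-2.18), Hk1 (-0.69), Epas1 (-4.23), Vegfa (-1.75), P4ha1 (-1.26) and Kdm3a (-0.46) were lower in knock-out cells. For the same step those of Pfkm (0.63), Ldhb (0.29), Pdk3 (0.60) and Ndrg1 (2.75) were higher in knock-out cells. Hk1 at the first step had an adjusted p of 0.0497 in edgeR's quasi-likelihood test, which was 0.062 to 0.127 on leaving out any 1 of 9 libraries. Ldhb at the last step was likewise not called without any 1 of 9 libraries (0.0534 to 0.107) or by the DESeq2 Wald test (0.0501). Groups of 3 libraries were not examined for single outlying values.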

How the results depend on the processing

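Of 189 calls on these genes over the 13 comparisons, 138 held under every alternative, and no called change turned direction. DESeq2 size factors ended 1 call, the DESeq2 Wald test 2, no filter on low counts 15, a fit of only the groups compared 6, and leaving out 1 library 48. A fit of only the groups compared moved 5 counts of called genes by over 1.5 times: 3 between genotypes at day 0, 22 at day 2 (7 higher, 15 lower), 27 for the knock-out step from day 2 to day 3, 23 for the knock-out step from day 3 to day 4 and 9 (6 higher, 3 lower) for the genotype difference of the step from day 2 to day 3. Over all genes it called 1587 in place of 3611 at day 0 and 3698 in place of 1986 for the last knock-out step. Leaving out 1 library gave 4 to 14 called genes at day 0, 7 to 10 at day 2, 9 to 14 for the knock-out step from day 2 to day 3, 4 to 9 for the last knock-out step and 2 to 7 for the genotype difference of the first step. Without knock-out day 0 replicate 3, the first knock-out step was 0.51 for Aldoc and 0.48 for Ddit4, against uncalled changes of -0.13 for both with it. It was -0.41 for Aldoc without knock-out day 0 replicate 1 and -0.37 for Ddit4 without replicate 2. The cause was not tested.

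Replicate numbers are shared by the groups. Only 3 of 30 same-number pairs correlated over 0.1 (range -0.15 to 0.165). In 18 of the 30, though, the same-numbered library was the best correlated of the 3 in its group. These values do not settle whether the numbers mark pairs. The main fit did not use them as pairs, and a replicate block was run as an alternative. With the replicate block, 5, 11, 18 and 21 genes were called between genotypes at days 0, 2, 3 and 4, 25, 18 and 24 over the wild-type steps, 24, 15 and 10 over the knock-out steps, and 3, 2 and 13 for the differences of steps. The block ended the calls of Hk1 in the first difference of steps (adjusted p = 0.0566, edgeR) and of Tpi1 in the last wild-type step (0.0538). It added those of Ankrd37 in the last difference of steps (-0.79, 0.0422) and of Slc16a1 in the knock-out step from day 2 to day 3 (-0.20, 0.0438). Depth limits Car9, Epas1 at days 2 to 4 and the other genes of a few CPM most.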
